A study of Mus musculus with 7 samples.

Results

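The colony-stimulating factors are the growth factors that macrophages and granulocytes depend on, and 8 genes of this system were followed by name through the deposited tables, 8 of the 23337 genes listed there. They were the ligands Csf1 (M-CSF), Csf2 (GM-CSF) and Csf3 (G-CSF), and the receptor genes Csf1r, Csf2ra, Csf2rb, Csf2rb2 and Csf3r. All 8 were found, and 7 of them averaged at least 1 TPM over the libraries and entered the tests. Csf2 did not, and it is described by its values. TPM is a length-corrected abundance that is scaled to the same sum in every library.

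RNA sequencing was carried out on bone marrow-derived macrophages of mice labelled as knockouts (KO) of Tgm2, the gene of transglutaminase 2, and of wild-type (WT) mice. The mice were labelled as males of 6 to 8 weeks. There were 4 groups: KO LPS (2 libraries), WT LPS (2 libraries), KO M0 (1 library) and WT M0 (2 libraries). Cells of every group had been grown for 7 days in M-CSF at 25 ng/ml, so the protein encoded by Csf1 was present in all of them before any comparison. The LPS groups then received lipopolysaccharide, a bacterial cell wall component, at 10 ng/ml for 6 hours, and the M0 groups did not. How the Tgm2 allele was made is not given in the sources used here. The labels do not say whether replicates are separate mice or cultures, so p-values measure only the spread between these libraries, which may be technical.

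M-CSF signals through the receptor tyrosine kinase Csf1r and keeps macrophages alive. GM-CSF binds an alpha chain encoded by Csf2ra, which pairs with a common beta chain encoded by Csf2rb and signals through Jak2 and Stat5. Mice carry a further beta chain gene, Csf2rb2, whose product is known for its use with the interleukin-3 receptor. G-CSF acts on the Csf3r receptor and drives neutrophil production, and macrophages are a well known source of it after exposure to bacterial products.

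The values are TPM, which correct for transcript length and can be compared between genes, but every library sums to 1000000 and keeps no record of its depth, which is therefore unknown. Tgm2 itself had 19.4 and 19.2 TPM in KO LPS libraries, 233 and 199 TPM in WT LPS libraries, 50.7 TPM in the KO M0 library and 433 and 368 TPM in WT M0 libraries. The WT LPS libraries, which are labelled male, carried Xist at 47.2 and 55.4 TPM, while Xist was at or below 0.00535 TPM in the other 5 libraries. Those WT LPS libraries also held less of the Y-linked genes, with Eif2s3y at 32.8 and 37.2 TPM against 66.1 to 78.3 TPM in the rest. Any comparison with WT LPS therefore also compares libraries that differ in these sex-linked transcripts. Genotype under LPS cannot be told apart from that difference. The same holds for LPS in WT cells and for the difference between the LPS changes of KO and WT cells. The KO LPS against KO M0 comparison uses those libraries only for the shared estimate of spread, and in a fit without both of them the calls of Csf3, Csf1, Csf3r and Csf2rb2 in it held and that of Csf1r did not (adjusted p = 0.0518, limma). All 10 macrophage markers were above 1 TPM on average, with sums of 36850 to 50970 TPM per library. Markers of stromal and endothelial cells summed to 22.1 to 46.1 TPM, and those of T, B, mast and dendritic cells to at most 16.3 TPM in any library; Pax5, Ms4a2 and Fcer1a were listed at 0 in all 7. In bulk RNA, fewer cells of a type and less RNA per cell cannot be told apart.

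The order of the 8 genes by level was dominated by the receptors. Csf1r ranked between place 25 and place 38 of 23337 genes in the 7 libraries. Csf2ra, Csf2rb and Csf2rb2 followed with overlapping ranges, so no order was read between those 3. Csf3r lay between 93.7 and 198 TPM. Both ligands that were tested were lower than every receptor gene in each library. Csf1 had 8.08 to 21.3 TPM over all libraries, and Csf3 had 1.82 to 125 TPM, the widest relative range of the 7 tested. Csf2 never exceeded 0.571 TPM.

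**Figure D1:**
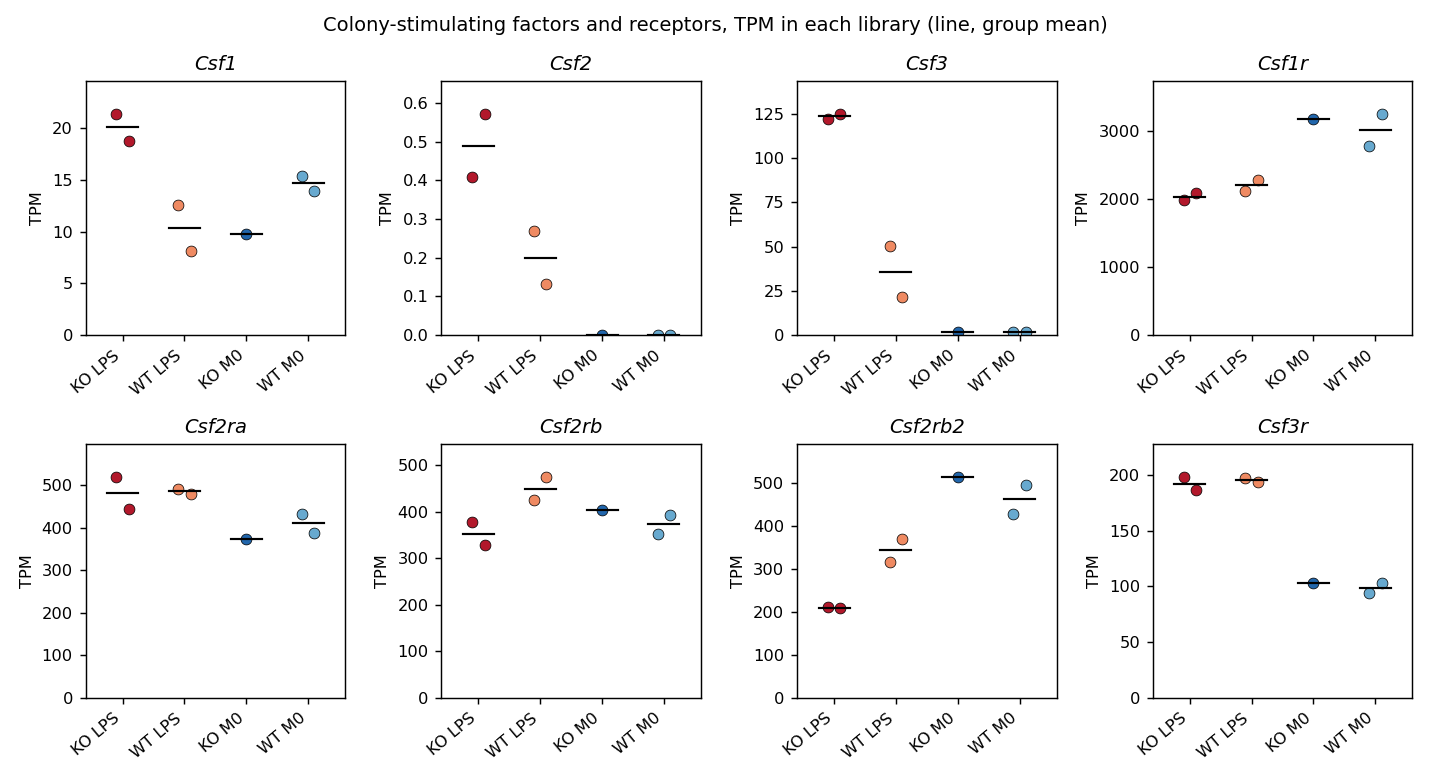
TPM (linear axis from 0) of each of the 8 genes in each library, 1 point per library, with a line at the group mean. Csf3 stands at 122 and 125 TPM in KO LPS libraries, 50.3 and 21.6 TPM in WT LPS libraries and below 2 TPM in all M0 libraries, while Csf1r is lower in all LPS libraries than in any M0 library.

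Csf3, the G-CSF gene, had 122 and 125 TPM in KO LPS libraries, 50.3 and 21.6 TPM in WT LPS libraries, 1.92 TPM in the KO M0 library and 1.82 and 1.90 TPM in WT M0 libraries. The 2 KO LPS libraries were above both WT LPS libraries, and all LPS libraries were above all M0 libraries. Its mean in KO LPS was 124 ± 1.75 TPM against 36.0 ± 20.3 TPM in WT LPS (SD, n = 2 each), so nearly all of the spread lay between the WT LPS libraries. The difference was 1.87 on the log2(TPM + 1) scale (SE 0.31, 95% interval 1.18 to 2.56, adjusted p = 0.0050, limma with Benjamini-Hochberg adjustment). Among 11096 tested genes, Csf3 had the 89th largest increase in this comparison. The estimate was 2.46 without WT LPS replicate 1 and 1.28 without WT LPS replicate 2, both past the threshold, and the call was lost when genes of low level were not filtered out (adjusted p = 0.114). LPS raised Csf3 in both genotypes, by 5.42 log2 units in KO cells (SE 0.38, adjusted p = 3.033e-06) and by 3.57 log2 units in WT cells (SE 0.31, adjusted p = 8.212e-06, limma). The M0 levels lay close to the pseudocount of 1, so these folds understate the change in TPM.

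Csf1, the M-CSF gene, followed another course. It had 21.3 and 18.8 TPM in KO LPS libraries, 12.6 and 8.08 TPM in WT LPS libraries, 9.76 TPM in the KO M0 library and 15.4 and 13.9 TPM in WT M0 libraries. Both KO LPS libraries were above every other library, and the WT LPS libraries were below both WT M0 libraries. Csf1 rose with LPS in KO cells by 0.96 log2 units (SE 0.27, adjusted p = 0.0176, limma). In WT cells the LPS difference was -0.49 (95% interval -0.98 to 0.00, adjusted p = 0.0962, limma), which did not pass. Between genotypes under LPS, Csf1 was higher in KO cells by 0.92 log2 units (SE 0.22, 95% interval 0.43 to 1.41, adjusted p = 0.0329, limma). That call was lost in 8 of 14 alternatives, with adjusted p between 0.0120 and 0.244 over the 14. Median-ratio scaling ended it (adjusted p = 0.0710), as did quantile normalization (0.0742) and testing with no filter (0.155). Leaving out 1 library ended it for KO LPS replicate 1 (0.151), KO LPS replicate 2 (0.106), WT LPS replicate 2 (0.244), WT M0 replicate 1 (0.0619) and WT M0 replicate 2 (0.0584). The rise in KO cells was lost without KO LPS replicate 1 (adjusted p = 0.0666) and with no filter (0.0695). In WT cells the LPS difference was -0.20 without WT LPS replicate 2, and it was called without WT LPS replicate 1 (-0.78, adjusted p = 0.0288, limma).

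Csf2, the GM-CSF gene, was listed at 0 in all 3 M0 libraries. In KO LPS libraries it had 0.409 and 0.571 TPM, against 0.268 and 0.131 TPM in WT LPS libraries. The KO LPS values were above the WT LPS values, but all 4 were under the 1 TPM average needed to enter the tests, and no fold is given against groups at 0. With no filter on level the genotype difference under LPS was 0.31 log2 units (adjusted p = 0.166, limma). In the same fit Csf2 was called higher with LPS in KO cells (0.57, adjusted p = 0.0181, limma) and not in WT cells (0.26, adjusted p = 0.0727), on a scale where these levels lie under the pseudocount of 1. Il3, the interleukin-3 gene that lies 15.2 kb from Csf2 on chromosome 11, was listed at 0 in all 7 libraries. Il34, the other known ligand of Csf1r, reached at most 0.308 TPM.

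The transcripts of Csf2 and Csf3 are textbook cases of AU-rich 3′ ends, whose AUUUA words are bound by decay factors such as Zfp36, and the stretches with the densest words are printed to show this feature. In the longest coding transcripts of GENCODE M21 (GRCm38.p6), the 3′ untranslated region of Csf2 held 9 such words in 317 bases and that of Csf3 held 6 in 669 bases. A density at least as high as that of Csf2 was found in 0.0921% of 20633 genes, and as high as that of Csf3 in 1.80%. Csf1 held 4 in 2111 bases and Csf1r, a receptor gene, 3 in 1669 bases, while Csf2ra, Csf2rb, Csf2rb2 and Csf3r held none. Each line gives 30 bases of the transcript strand with ATTTA in capitals, and overlapping words run together.
Csf2: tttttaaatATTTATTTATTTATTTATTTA
Csf3: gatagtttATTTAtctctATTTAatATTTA

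Of the 5 receptor genes, Csf2rb2 was the only one called between genotypes under LPS, where 2.58% of all tested genes were lower and 4.59% higher. It had 212 and 209 TPM in KO LPS libraries, 317 and 371 TPM in WT LPS libraries, 515 TPM in the KO M0 library and 429 and 497 TPM in WT M0 libraries. The 4 groups were in steps, with no overlap between KO LPS, WT LPS and the M0 libraries. Csf2rb2 was lower in KO LPS than in WT LPS, with a difference of -0.70 on the log2 scale (SE 0.16, 95% interval -1.05 to -0.36, adjusted p = 0.0228, limma). It fell with LPS by 1.29 log2 units in KO cells (SE 0.19, adjusted p = 0.000436) and by 0.43 log2 units in WT cells (SE 0.16, adjusted p = 0.0465, limma). The fall in KO cells passed in all 13 alternatives. The genotype call was lost without KO LPS replicate 1 (adjusted p = 0.0700), KO LPS replicate 2 (0.0961), after dropping either WT LPS library (0.0602 without replicate 1 and 0.229 without replicate 2), and with no filter (0.0831). The fall in WT cells was -0.19 with median-ratio scaling (adjusted p = 0.284, limma). It was also lost with no filter (0.0638), after dropping WT M0 replicate 2 (0.187), and with either WT LPS library left out (0.296 without replicate 1 and 0.0753 without replicate 2).

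Csf2rb, which encodes the common beta chain of the GM-CSF receptor, had 377 and 328 TPM in KO LPS libraries, 424 and 475 TPM in WT LPS libraries, 405 TPM in the KO M0 library and 353 and 394 TPM in WT M0 libraries. All KO LPS and M0 values were below both WT LPS values. Its genotype difference under LPS was -0.35 log2 units (95% interval -0.70 to -0.01, adjusted p = 0.241, limma), which did not pass, and neither LPS comparison passed. Csf2rb and Csf2rb2 lie 20.1 kb apart on chromosome 15 in opposite orientation. Their coding sequences (GENCODE M21) were 95.2% identical over 2631 aligned bases, and 19.0% of the 50-base windows of Csf2rb2 occurred unchanged in Csf2rb, falling to 3.59% of the 150-base windows. How reads shared by both were assigned is not given in the sources used here, so the split of TPM between these genes is uncertain. As deposited, the ratio of Csf2rb2 to Csf2rb was 0.562 and 0.636 in KO LPS libraries, 0.748 and 0.781 in WT LPS libraries, 1.27 in the KO M0 library and 1.21 and 1.26 in WT M0 libraries. All 4 LPS libraries were below all 3 M0 libraries, with a mean log2 ratio lower by 0.89 when the genotypes are pooled. This ratio was chosen after the values of both genes had been seen, so the separation is a description and no test of it is given.

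**Figure D2:**
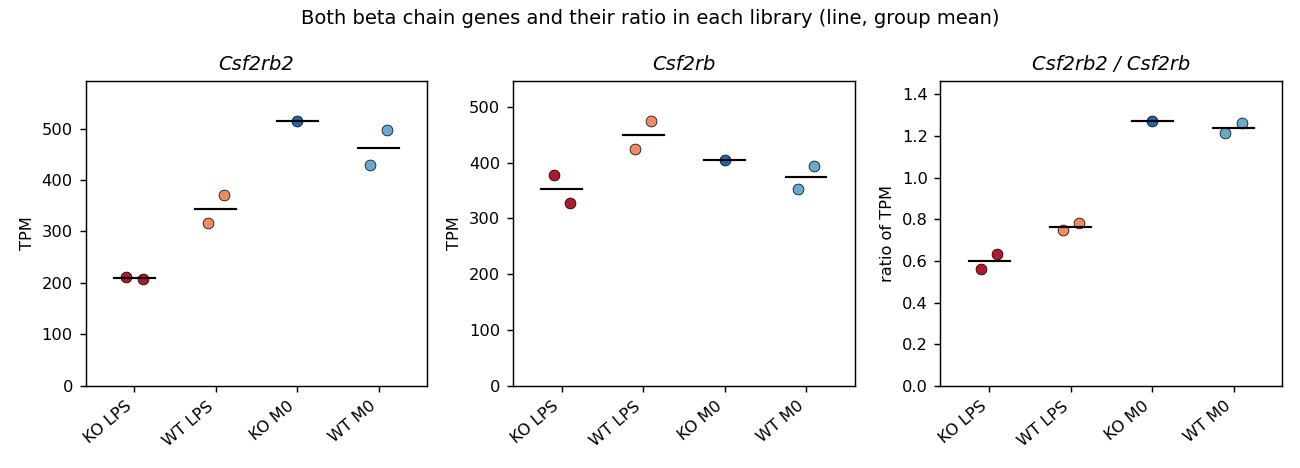
TPM of Csf2rb2 and of Csf2rb, and their ratio, in each library (points) with the group mean (line), on linear axes from 0. The ratio is 0.562 to 0.781 in LPS libraries and 1.21 to 1.27 in M0 libraries.

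Csf2ra, the alpha chain that binds GM-CSF, did not pass in any comparison. It had 519 and 443 TPM in KO LPS libraries, 491 and 479 TPM in WT LPS libraries, 373 TPM in the KO M0 library and 432 and 388 TPM in WT M0 libraries. The LPS libraries were all above the M0 libraries by small margins, and the genotypes overlapped under LPS. The genotype difference under LPS was -0.02 log2 units with a 95% interval of -0.36 to 0.32. The LPS difference was 0.36 in KO cells (95% interval -0.05 to 0.78, adjusted p = 0.154) and 0.24 in WT cells (95% interval -0.10 to 0.58, adjusted p = 0.222, limma). With median-ratio scaling both passed, at 0.62 (adjusted p = 0.0448) in KO cells and 0.48 (adjusted p = 0.0449, limma) in WT cells, and Csf2rb then passed in WT cells as well (0.51, adjusted p = 0.0203).

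Csf3r, the G-CSF receptor gene, had 198 and 186 TPM in KO LPS libraries, 198 and 194 TPM in WT LPS libraries, 103 TPM in the KO M0 library and 93.7 and 103 TPM in WT M0 libraries. The LPS and M0 libraries did not overlap and the genotypes lay together within each treatment. Csf3r rose with LPS by 0.89 log2 units in KO cells (SE 0.18, adjusted p = 0.0031) and by 0.99 log2 units in WT cells (SE 0.15, adjusted p = 0.000359, limma), and both calls held in every alternative run, 13 and 14 of them. Between genotypes under LPS the difference was -0.03 with a 95% interval of -0.35 to 0.30. Neutrophils are the cells best known for Csf3r, and the sum of their markers was higher with LPS too. That sum was 156 and 218 TPM in KO LPS libraries, 288 and 413 TPM in WT LPS libraries, 22.5 TPM in the KO M0 library and 20.7 and 23.6 TPM in WT M0 libraries. S100a8 alone had 96.9 and 152 TPM in KO LPS libraries and 196 and 321 TPM in WT LPS libraries. Prtn3, at most 0.498 TPM, went the other way and was higher in every M0 library than in any LPS library. Only 3 of the 11 listed markers averaged at least 1 TPM, namely S100a8, Mmp8 and Camp, while Retnlg and Cxcr2 were listed at 0 in all 7 libraries and S100a9 in 6. Whether such cells had a part in the Csf3r values was not tested.

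Promoter sequence is shown for 3 of the 5 members that passed a test, Csf1, Csf3r and Csf2rb2, so that the window searched for factor motifs can be read. RefSeq (GRCm38.p6) supplied the 250 bases before a start of Csf1 (chr3:107760470-107760719, minus strand), Csf3r (chr4:126024409-126024658, plus strand) and Csf2rb2 (chr15:78305722-78305971, minus strand). The Csf3r window lies inside the annotated gene (chr4:126023441-126044975), so it ends at an internal start. Positions of Csf3r are counted from that internal start. The 5 motifs searched on both strands were GGG and TTCC with 3 bases between them (NF-kappaB-like, in 4.65% of 32851 windows of the same length), TGANTCA (AP-1, 6.75%), TTGCNNAA (C/EBP-like, 9.56%), GAGGAAG (PU.1-like, 10.6%) and TTCNNNGAA (STAT-like, 7.02%). Capitals mark the matches. Positions are counted back from the start, with -1 as the base before it. Csf1 held an NF-kappaB-like match at -154 to -145. Csf3r held an NF-kappaB-like match at -129 to -120 and a PU.1-like match at -86 to -80. Csf2rb2 held a PU.1-like match at -168 to -162 and a STAT-like match at -15 to -7. These are matches of letters and not measured binding.
Csf1: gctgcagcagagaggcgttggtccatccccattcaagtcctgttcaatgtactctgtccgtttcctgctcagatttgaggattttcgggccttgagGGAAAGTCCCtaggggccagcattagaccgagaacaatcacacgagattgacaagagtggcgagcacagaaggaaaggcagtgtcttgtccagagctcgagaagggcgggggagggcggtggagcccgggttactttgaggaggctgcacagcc
Csf3r: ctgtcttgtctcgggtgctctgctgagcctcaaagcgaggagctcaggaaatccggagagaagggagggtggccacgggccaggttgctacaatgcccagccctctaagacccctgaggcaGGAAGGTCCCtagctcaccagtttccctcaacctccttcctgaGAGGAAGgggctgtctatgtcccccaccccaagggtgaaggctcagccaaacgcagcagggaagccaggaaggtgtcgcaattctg
Csf2rb2: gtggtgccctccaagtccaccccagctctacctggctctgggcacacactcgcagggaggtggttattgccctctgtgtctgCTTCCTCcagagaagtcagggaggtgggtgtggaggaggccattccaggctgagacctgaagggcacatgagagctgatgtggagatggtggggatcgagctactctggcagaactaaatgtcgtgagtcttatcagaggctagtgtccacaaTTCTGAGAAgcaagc

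The wider measurements were then read across the members by comparison, against the share of all tested genes that passed. Under LPS, 2 of 7 tested members were higher in KO than in WT cells (Csf3 and Csf1) and 1 was lower (Csf2rb2), where 4.59% of all 11096 genes were higher and 2.58% were lower. Without LPS no member passed between KO and WT cells, and the background was 0% higher and 0.00901% lower. The widest of those estimates was that of Csf1, at -0.54 log2 units (95% interval -1.14 to 0.07, adjusted p = 1.0, limma). This comparison rests on 1 KO library, whose spread is taken from the replicated groups. With LPS in KO cells, 3 members were higher (Csf3, Csf1 and Csf3r) and 2 lower (Csf2rb2 and Csf1r), against 13.8% and 24.3% of all genes. With LPS in WT cells, 2 members were higher (Csf3 and Csf3r) and 2 lower (Csf1r and Csf2rb2), against 15% and 29.6% of all genes, so the 2 of 7 that were lower stood near the background. The median gene moved by -0.24 log2 units with LPS in KO cells and by -0.21 in WT cells, and with median-ratio scaling by 0.00 and 0.01. The share of higher calls then went up, with 2114 genes higher and 1838 lower in KO cells and 2490 higher and 2272 lower in WT cells, against 1533 higher and 2700 lower in KO cells and 1665 higher and 3284 lower in WT cells as deposited.

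**Figure D3:**
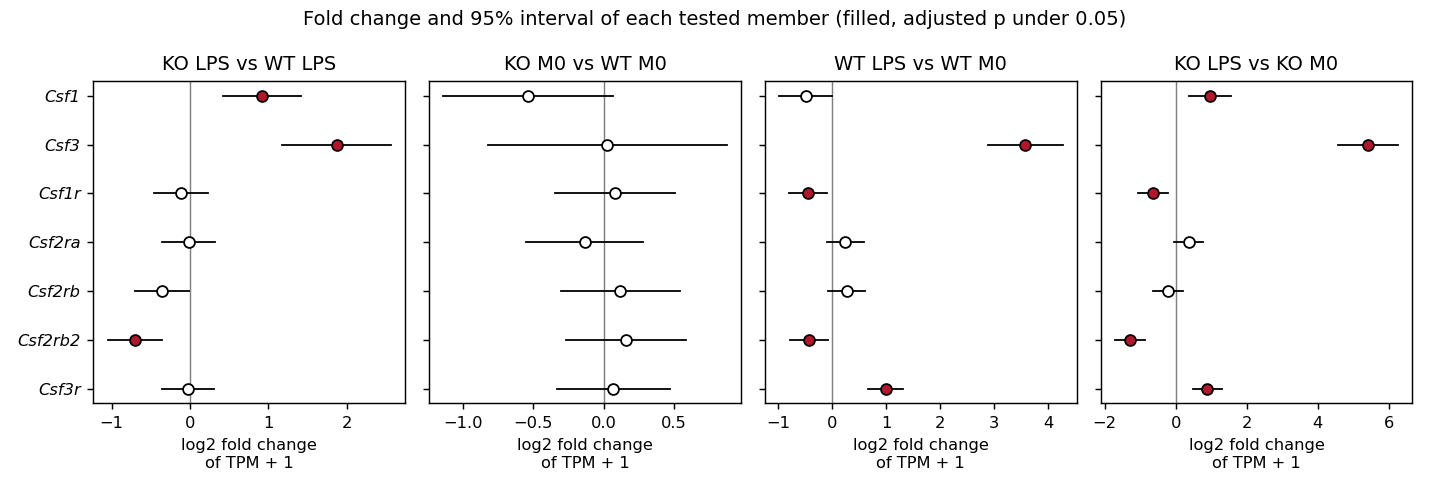
Log2 fold change of TPM + 1 (point) with its 95% interval (line) for the 7 tested members in 4 comparisons; filled points passed an adjusted p of 0.05 in limma. Csf3, Csf1 and Csf2rb2 are filled in the KO LPS against WT LPS panel, and no member is filled in the KO M0 against WT M0 panel, where the axis is narrower.

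The test of whether LPS moved a gene differently in KO and WT cells called no member. The change in KO cells minus the change in WT cells was 1.84 log2 units for Csf3 (95% interval 0.75 to 2.94, adjusted p = 0.132), 1.46 for Csf1 (95% interval 0.68 to 2.23, adjusted p = 0.0866) and -0.86 for Csf2rb2 (95% interval -1.41 to -0.31, adjusted p = 0.165, limma). In all, 0.847% of genes were called with a larger change in KO cells and 0.523% with a smaller one. Without WT LPS replicate 1 the estimate for Csf3 was 2.44 (adjusted p = 0.0114) and that for Csf1 was 1.75 (adjusted p = 0.0425, limma), and both then passed. Of the 4 receptor genes besides Csf2rb2, Csf2rb had the widest estimate, -0.47 (95% interval -1.01 to 0.08). The KO and WT changes use different libraries, so they share no control, and Csf1 lies below the diagonal in the plot of both changes.

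**Figure D4:**
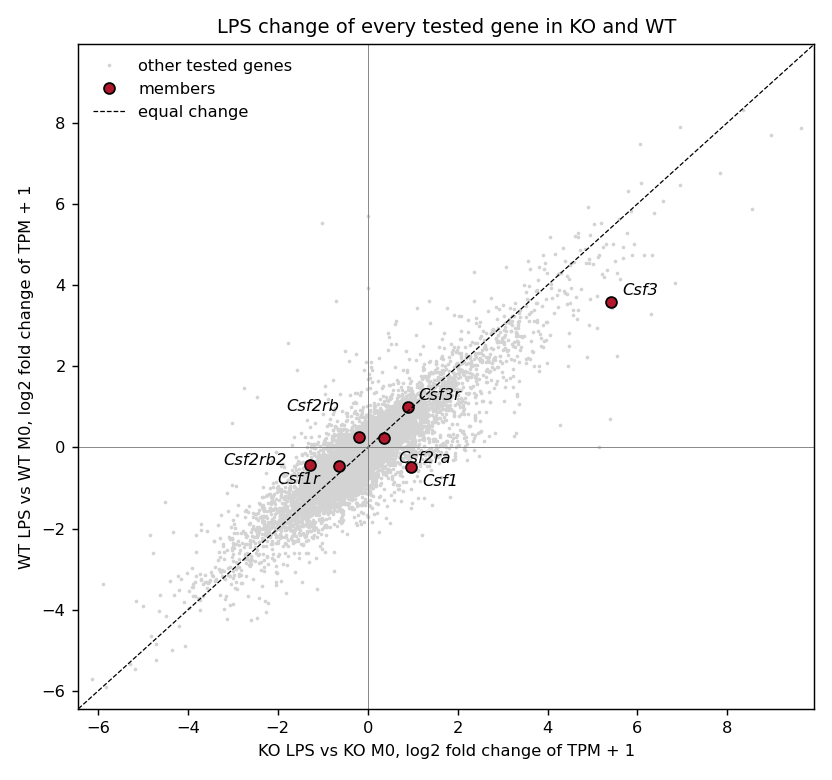
LPS change of each tested gene in KO cells (horizontal) and in WT cells (vertical), as log2 fold change of TPM + 1, with the 7 tested members as labelled red points, all other genes in grey and the dashed line at equal change. Csf3 lies at 5.42 and 3.57, Csf1 at 0.96 and -0.49, and Csf3r close to the line at 0.89 and 0.99.

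Csf1r, the M-CSF receptor gene, had 1982 and 2089 TPM in KO LPS libraries, 2125 and 2281 TPM in WT LPS libraries, 3175 TPM in the KO M0 library and 2779 and 3248 TPM in WT M0 libraries. Every LPS library was below every M0 library, and the genotypes were next to each other within each treatment. It fell with LPS by 0.64 log2 units in KO cells (SE 0.19, adjusted p = 0.0239) and by 0.45 log2 units in WT cells (SE 0.16, adjusted p = 0.0399, limma). Relative to the median gene the differences were -0.40 in KO cells and -0.24 in WT cells. With median-ratio scaling the difference was -0.39 in KO cells (adjusted p = 0.137) and -0.21 in WT cells (adjusted p = 0.291), and neither passed. The KO call was also lost with quantile normalization (adjusted p = 0.0831), no filter (0.0797), the KO groups fitted alone (0.0669), and without KO LPS replicate 1 (0.0557), either WT LPS library (0.0505 without replicate 1 and 0.0502 without replicate 2) or both of them (0.0518). The WT call was lost with quantile normalization (0.325), no filter (0.104), and after dropping WT M0 replicate 2 (0.176) or either WT LPS library (0.218 without replicate 1 and 0.115 without replicate 2). Between genotypes under LPS the difference was -0.11 with a 95% interval of -0.46 to 0.24.

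Pdgfrb, which encodes a receptor for platelet-derived growth factor, ends 20.5 kb from Csf1r on chromosome 18 and moved the other way. Hmgxb3, the neighbour of Csf1r on the other side at 0.1 kb, did not pass in any comparison. With LPS, Hmgxb3 differed by -0.03 log2 units in KO cells and by -0.37 in WT cells (adjusted p = 0.0950 in WT cells, limma). Pdgfrb had 27.7 and 19.9 TPM in KO LPS libraries, 18.2 and 21.2 TPM in WT LPS libraries, 1.93 TPM in the KO M0 library and 1.81 and 2.29 TPM in WT M0 libraries. It rose by 3.06 log2 units in KO cells (SE 0.27) and by 2.76 log2 units in WT cells (SE 0.22), and both calls held in every alternative run. Pdgfrb is also on the list of stromal and endothelial markers, whose members did not move together. Pecam1 had 2.12 and 2.30 TPM in KO LPS libraries and 0.676 TPM in the KO M0 library. In WT libraries Pecam1 had 0.585 and 0.333 TPM with LPS and 0.846 and 0.761 TPM without. The collagen genes Col1a1, Col1a2 and Col3a1 were lower in every LPS library than in any M0 library. Whether stromal cells had a part in the Pdgfrb values was not tested. Col1a1 had 1.18 and 1.56 TPM in KO LPS libraries, 0 and 0 TPM in WT LPS libraries, 10.4 TPM in the KO M0 library and 13.2 and 18.6 TPM in WT M0 libraries. With LPS in WT cells, Mrps15, the neighbour of Csf3r, was lower (-0.82, adjusted p = 0.00421) while Csf3r rose, and Med24, a neighbour of Csf3, was lower (-0.49, adjusted p = 0.0375, limma) while Csf3 rose. The call of Mrps15 held in 14 of 14 alternatives, and that of Med24 was lost in 8 of 14. Those were median-ratio scaling (adjusted p = 0.161), quantile normalization (0.0814), the WT groups alone (0.0533), and leaving out KO LPS replicate 1 (0.0529), KO LPS replicate 2 (0.0534), WT LPS replicate 1 (0.129), WT LPS replicate 2 (0.116) or WT M0 replicate 2 (0.169). Neither passed in KO cells, where Mrps15 differed by -0.26 and Med24 by -0.24 log2 units. Psmd3 and Med24, which flank Csf3 at 4.2 kb and 1.0 kb, differed between KO LPS and WT LPS by -0.06 and 0.36 log2 units, and neither passed. Ahcyl1, P4ha2 and Ncf4, neighbours of Csf1, Csf2 and Csf2rb2, did not pass in any comparison.

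Genes whose level ran closest to each member over the 7 libraries were found by Pearson correlation of log2(TPM + 1) among 8362 genes, as a description only, since the libraries share treatment and genotype groups. Csf3 was nearest to Sp140 (r = 0.999), a speckled protein family gene, to Ccdc25 (0.998) and to Ticam2 (0.998), which encodes an adaptor of the LPS receptor Tlr4. Csf3r was nearest to Tnfrsf1b (0.999), a tumour necrosis factor receptor gene, Gpr84 (0.999) and Treml4 (0.998). Csf2rb2 was nearest to Evi2b (0.995), Paip2 (0.994) and Ttyh2 (0.994). Csf1 was nearest to Gmppb (0.992), Cdc42se1 (0.945) and Abhd16a (0.943), so fewer genes shared its course closely. Csf1r was nearest to Tpd52 (0.998), Ldlrad3 (0.997) and Prkar1a (0.997), Csf2ra to Rras (0.983), Stip1 (0.976) and Hcls1 (0.973), and Csf2rb to E2f6 (0.988), Pde4dip (0.984) and Mapk14 (0.982). Under LPS, Sp140 was higher in KO than in WT cells (0.95, adjusted p = 0.0244) and Ttyh2 was lower (-0.94, adjusted p = 0.00975, limma). None of the other genes found by this correlation passed there. The call of Sp140 was lost in 7 of 14 alternatives and that of Ttyh2 in 2, namely without KO LPS replicate 2 (adjusted p = 0.0710) and without WT LPS replicate 2 (0.0676).

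Downstream of the receptors, lists of pathway genes were counted. Of 20 tested relays of Csf1r, 1 was higher in KO LPS than in WT LPS and none was lower. The background there was 4.59% of all genes higher and 2.58% lower, so the 1 higher relay stood near it. With LPS, 5 relays were higher and 5 lower in KO cells, and 5 were higher and 4 lower in WT cells. Of all tested genes, 13.8% were higher and 24.3% lower with LPS in KO cells, and 15% were higher and 29.6% lower in WT cells, so the lower relays stood near or below that background. The list's median was -0.01 log2 units between genotypes under LPS, against 0.03 for all genes. Pik3cd, the p110 delta subunit of phosphoinositide 3-kinase, had 128 and 145 TPM in KO LPS libraries, 91.8 and 74.2 TPM in WT LPS libraries, 55.1 TPM in the KO M0 library and 58.0 and 63.7 TPM in WT M0 libraries. Its genotype difference under LPS was 0.72 log2 units (SE 0.17, adjusted p = 0.0293, limma), and that call was lost in 6 of 14 alternatives, among them median-ratio scaling (adjusted p = 0.0573). With LPS, the adaptor gene Dok2, which restrains kinase signalling, fell by 2.62 log2 units in KO cells and 2.46 in WT cells. Inpp5d, which encodes the phosphatase SHIP1, fell by 1.62 log2 units in KO cells and 0.97 in WT cells.

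None of 15 tested genes of the Jak2 and Stat5 route passed between KO LPS and WT LPS, although the list's median was 0.35 log2 units, against 0.03 for all genes. With LPS, 4 were higher and 4 lower in KO cells, and 3 were higher and 5 lower in WT cells. The lower counts again stood near the background of 24.3% of all genes in KO cells and 29.6% in WT cells, and 13.8% and 15% of all genes were higher. The higher ones included Jak2, the kinase of the GM-CSF receptor, and the feedback inhibitors Socs1 and Socs3. Socs1 had 114 and 81.9 TPM in KO LPS libraries, 69.6 and 48.8 TPM in WT LPS libraries, 6.56 TPM in the KO M0 library and 4.32 and 5.13 TPM in WT M0 libraries. It rose by 3.69 log2 units in KO cells and 3.38 in WT cells. Myc was among the lower ones, with -2.81 log2 units in KO cells and -3.15 in WT cells. Cish, a classic Stat5 target and inhibitor, was lower too, with -0.74 in KO cells (adjusted p = 0.0455) and -1.30 in WT cells (adjusted p = 0.000637, limma). The calls of Cish were not followed through the alternatives. Stat5a had 26.1 and 28.2 TPM in KO LPS libraries and 24.4 and 25.8 TPM in WT LPS libraries, and did not pass in any comparison.

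Among 10 tested transcription factors of Csf1r and macrophage identity, 2 were lower in KO LPS than in WT LPS and none was higher. Of all tested genes, 2.58% were lower and 4.59% higher in that comparison. Cebpa, a factor of myeloid commitment, had 20.3 and 12.0 TPM in KO LPS libraries against 47.3 and 45.7 TPM in WT LPS libraries (-1.51, SE 0.23, adjusted p = 0.00277, limma). Egr2 had 2.06 and 3.32 TPM in KO LPS libraries against 6.76 and 6.82 TPM in WT LPS libraries (-1.10, SE 0.22, adjusted p = 0.0128, limma). The call of Cebpa was lost in 1 of 14 alternatives, the one with no filter (adjusted p = 0.0734). That of Egr2 was lost there too (0.0996), without KO LPS replicate 1 (0.0951) and without WT LPS replicate 2 (0.0633). With LPS, 4 of the 10 were lower and 1, Ets2, was higher in each genotype, where 24.3% of all genes were lower and 13.8% higher in KO cells and 29.6% were lower and 15% higher in WT cells. Spi1 (PU.1), the factor best known for driving Csf1r, had 1097 and 1131 TPM in KO LPS libraries and 1142 and 1032 TPM in WT LPS libraries, and 947 TPM in the KO M0 library and 1144 and 1008 TPM in WT M0 libraries, with no call in any comparison.

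**Figure D5:**
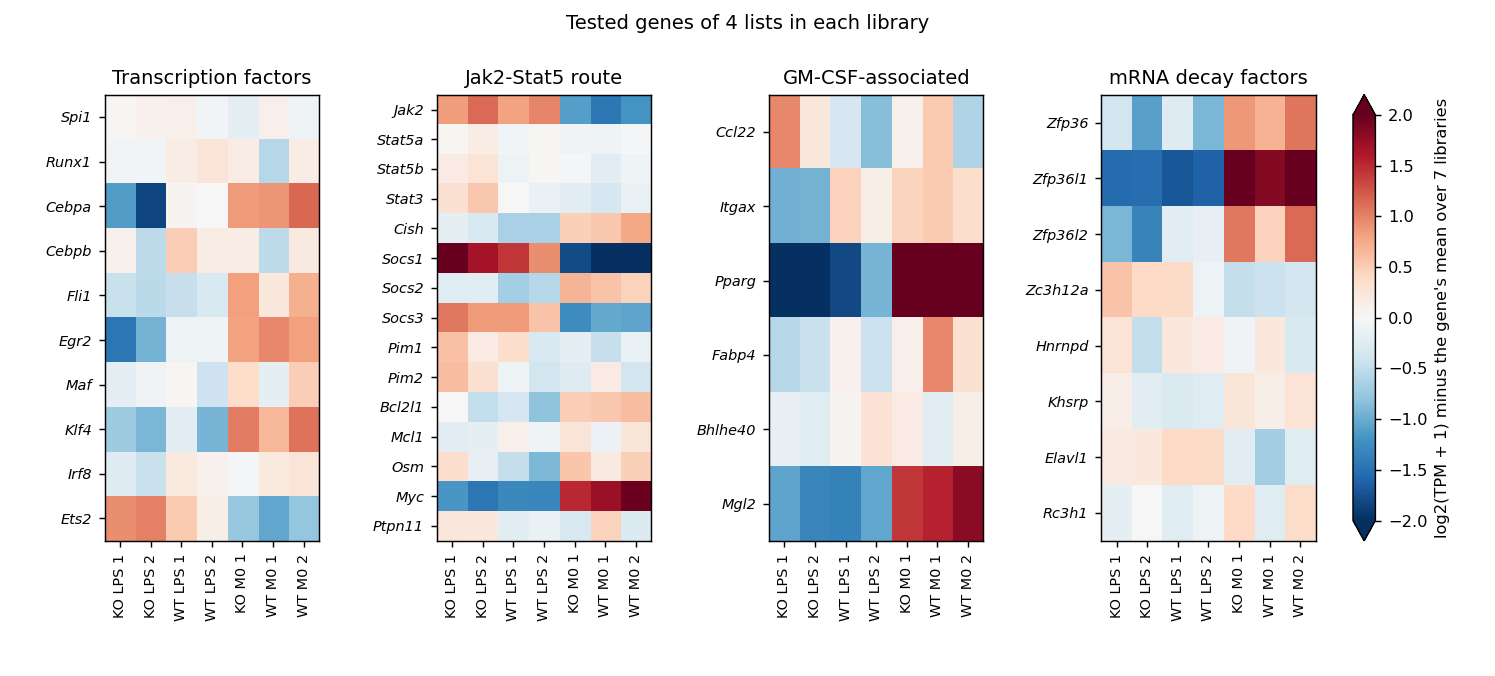
Log2(TPM + 1) of each tested gene of 4 lists in each library, minus that gene's mean over the 7 libraries; red is above the mean, blue below, and colours saturate at 2 units. Cebpa, Egr2 and Itgax are bluer in KO LPS than in WT LPS columns, and Socs1, Socs3 and Jak2 are red in all LPS columns.

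Of 8 genes associated with GM-CSF in myeloid cells, 6 were tested. Against a background of 2.58% of all genes, 1 was lower in KO LPS than in WT LPS. This was Itgax (CD11c), with 3.43 and 3.51 TPM in KO LPS libraries, 10.9 and 8.43 TPM in WT LPS libraries, 10.8 TPM in the KO M0 library and 11.4 and 10.1 TPM in WT M0 libraries (-1.25 between genotypes under LPS, SE 0.20, adjusted p = 0.00436, limma). That call was lost in 1 of 14 alternatives, the one with no filter (adjusted p = 0.0543). No gene of this list was called higher there. Ccl22 had 7.51 and 4.10 TPM in KO LPS libraries and 2.47 and 1.44 TPM in WT LPS libraries. Ccl17, which was not tested, had 1.08 and 2.01 TPM in KO LPS libraries and 0 TPM in both WT LPS libraries. With LPS, 3 of the 6 were lower and none higher in each genotype, among them Pparg, the regulator of alveolar macrophages, which fell by 5.00 log2 units in KO cells and differed by -3.90 in WT cells. Many genes fell with LPS, 24.3% of all tested in KO cells and 29.6% in WT cells. Of 8 tested decay factors of AU-rich and stem-loop transcripts, 1 was lower in KO LPS than in WT LPS, where 2.58% of all genes were lower. Zfp36l2 had 95.9 and 71.8 TPM in KO LPS libraries and 155 and 162 TPM in WT LPS libraries (-0.92, SE 0.23, adjusted p = 0.0344, limma), and that call was lost in 5 of 14 alternatives. With LPS, 13.8% of all genes were higher and 24.3% lower in KO cells, and 15% were higher and 29.6% lower in WT cells. Of these factors, 1 was higher and 3 lower in KO cells, and 2 were higher and 3 lower in WT cells. The 3 that were lower were Zfp36, Zfp36l1 and Zfp36l2 in both genotypes.

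Growth factors and receptors outside the 8 genes were mostly near 0. Of 7 other ligands, 2 were tested, and Kitl, the stem cell factor gene, fell with LPS by 1.89 log2 units in KO cells and 1.52 in WT cells. Flt3l, the other tested ligand, did not pass in any comparison. Of 7 other receptors, only Il3ra, the interleukin-3 receptor alpha chain, was tested. It had 108 and 80.8 TPM in KO LPS libraries, 119 and 90.3 TPM in WT LPS libraries, 172 TPM in the KO M0 library and 156 and 171 TPM in WT M0 libraries. Il3ra fell with LPS by 0.87 log2 units in KO cells (adjusted p = 0.0154) and by 0.65 in WT cells (adjusted p = 0.0197, limma), and both calls were lost with median-ratio scaling (adjusted p = 0.102 in KO cells and 0.151 in WT cells) and with no filter (0.0664 and 0.0734). The KO call was also lost without KO LPS replicate 2 (0.0714), and the WT call without WT LPS replicate 2 (0.167), WT M0 replicate 1 (0.0545) or WT M0 replicate 2 (0.0962). In KO M0 against WT M0, no gene of the 7 lists passed.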

How the data were processed

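The authors deposited 1 table per library with TPM values for 23337 genes, scaled before deposit so that each library sums to 1000000. Reads were placed on mm10 (the submitters' processing notes). Not given in the sources used here are the software for alignment and quantification, the gene annotation, any use of strand, and how reads common to gene copies were treated. Groups follow the sample titles. A pseudocount of 1 was added, values were taken to log2, and genes with a mean of at least 1 TPM over the 7 libraries (11096) were fitted with limma 3.58.1 (R 4.3.3) as 4 group means with a trended prior, 3 residual degrees of freedom and Benjamini-Hochberg adjustment over all genes at 0.05. The fit was tested on simulated data. The 8 members and the lists of pathway and marker genes were chosen with earlier results of these data known. Besides the members, the text names up to 4 genes per list and comparison with the smallest p among those called. Also named are the nearest protein-coding neighbours in RefSeq that were tested, and Il3. The 3 genes nearest in course to each member were taken from those with a mean of at least 5 TPM. A few others, among them Cish, Stat5a, Spi1, Flt3l and Il34, were named outside these rules. Sequences came from RefSeq and GENCODE M21 on GRCm38.p6. Alternatives were median-ratio scaling, quantile normalization, a pseudocount of 0.1, no filter, a minimum of 5 TPM, each library left out, both WT LPS libraries left out, the compared groups alone, a replicate block and a threshold of 0.01. Some genes of the lists are not reported here and were left out of the list counts.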

Additional observations from a re-analysis of the deposited data

How the results depend on the processing

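The fold changes of the 7 tested members kept direction and call in 436 of 490 recomputed values, lost the call in 41, gained it in 7 and reversed in 6, none of them called. Most of these values belong to results that had no call to lose. At the 0.05 threshold, Csf1 between genotypes under LPS lost its call in 8 of 14 alternatives. Csf1r with LPS in KO cells lost its call in 8 of 13. Csf3 and Csf3r with LPS in both genotypes, and Csf2rb2 with LPS in KO cells, were called in every alternative run at the 0.05 threshold. Other named genes with a call lost it in 56 of 916 recomputed values and reversed in none. Counts of list genes moved in 84 of 980. The causes were not tested. No filter tests more genes and also changed the estimated spread. The SE of Csf3 between KO LPS and WT LPS was 0.40 with no filter and 0.31 with it. Leaving out libraries leaves fewer residual degrees of freedom. Groups of 1 or 2 libraries and unknown depth limit all of these values, and leaving out the only KO M0 library ends every comparison that uses it.

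With median-ratio scaling, members called between KO LPS and WT LPS numbered 1 higher and 1 lower. With LPS, 4 were higher and 0 lower in WT cells, and 4 were higher and 1 lower in KO cells. With quantile normalization, 1 was higher and 1 lower between KO LPS and WT LPS. With LPS, 3 were then higher and 1 lower in KO cells, and 2 were higher and 1 lower in WT cells. With no filter, 0 were higher and 0 lower between KO LPS and WT LPS, and with LPS 1 was lower in KO cells and 0 in WT cells. At the 0.01 threshold, 1 was higher and 0 lower between KO LPS and WT LPS, and with LPS 1 was lower in KO cells and 0 in WT cells. With the compared groups alone, and without both WT LPS libraries, 1 was lower with LPS in KO cells. Leaving out 1 library gave 1 to 2 higher and 0 to 1 lower between KO LPS and WT LPS, 1 to 2 lower with LPS in KO cells, 0 to 2 lower with LPS in WT cells, and 0 to 2 with a larger LPS change in KO than in WT cells.

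Over all genes, KO LPS against WT LPS had 509 higher and 286 lower, against 213 and 94 with no filter, 327 higher at a minimum of 5 TPM, 238 and 124 at the 0.01 threshold, and 244 to 515 and 122 to 289 with 1 library left out. KO M0 against WT M0 had 0 higher and 1 lower, against 19 higher with no filter, 2 lower with a pseudocount of 0.1, 17 and 23 with those groups alone, and 0 to 2 and 1 to 4 with 1 library left out. At the 0.01 threshold 1556 genes were lower with LPS in KO cells and 2181 in WT cells. The difference of the LPS changes had 94 higher and 58 lower, against 54 and 38 with a pseudocount of 0.1, 1 and 9 with no filter, 57 higher at a minimum of 5 TPM, 13 and 15 at the 0.01 threshold, and 7 to 94 and 9 to 45 with 1 library left out.

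Reversals were small. Between KO LPS and WT LPS, Csf2ra ran from -0.1317 without KO LPS replicate 1 to 0.0981 without KO LPS replicate 2, and Csf3r from -0.0723 to 0.0184 in the same fits. Between KO M0 and WT M0, Csf3 was -0.0043 with median-ratio scaling and -0.0088 with quantile normalization, and Csf1r ran from -0.0329 without WT M0 replicate 1 to 0.1922 without WT M0 replicate 2. Csf2rb with LPS in KO cells was 0.053 with median-ratio scaling.

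Replicate numbers are shared by KO LPS, WT LPS and WT M0, and the deviations of same-numbered libraries correlated by 0.181, 0.298 and 0.0804 between those groups. The main fit did not take the numbers as pairs, and whether they mark pairs was not settled. With the replicate block, in a fit without the single KO M0 library, Csf1 passed with LPS in WT cells (-0.49, adjusted p = 0.0369, limma), and 3 members were then lower there. The other member calls of KO LPS against WT LPS and WT LPS against WT M0 were as without the block. Over all genes it gave 714 higher and 401 lower between KO LPS and WT LPS. Without KO M0 and without the block these were 515 and 289. With LPS in WT cells it gave 1925 higher and 3707 lower, against 1677 and 3242.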

Other observations

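Some ratios between members differed more between LPS and M0 libraries than within either. Csf1r exceeded Csf3r by a TPM ratio of 9.99 and 11.2 in KO LPS libraries, 10.7 and 11.8 in WT LPS libraries, 30.8 in the KO M0 library and 29.6 and 31.6 in WT M0 libraries. The ratio of Csf3 to Csf1 was 5.74 and 6.65 in KO LPS libraries, 4.00 and 2.67 in WT LPS libraries, 0.196 in the KO M0 library and 0.118 and 0.137 in WT M0 libraries. The ratio of Csf2ra to Csf2rb overlapped, with 1.38 and 1.35 in KO LPS libraries, 1.16 and 1.01 in WT LPS libraries, 0.921 in the KO M0 library and 1.22 and 0.986 in WT M0 libraries. These ratios were chosen after the values had been seen and were not tested.

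The KO M0 library differed from WT M0 replicate 2 by a median absolute log2 difference of 0.0959 over the tested genes, and from WT M0 replicate 1 by 0.226, while the WT M0 replicates differed by 0.221 from each other.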
